A study of Mus musculus with 6 samples.

Results

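Genes of the type 2, interleukin-33 (IL-33) and interleukin-25 (IL-25) responses were followed in spleen cells (splenocytes) of lupus-prone female NZB/WF1 mice. The group held 9 of the 561 genes counted, picked by symbol through the RefSeq transcript that each row names: the receptor chains Il1rl1, Il17rb and Il4ra, the cytokines Il4, Il13 and Tslp, and the transcription factors Gata3, Maf and Stat6. All 9 were found, and all 9 had a mean of at least 20 counts and were tested. The genes were chosen for these pathways with their counts in the 3 groups already known. Their values are therefore a description, and the number past a threshold is given only beside the same share of all genes tested. Mice carried an implant of 17-beta estradiol (E2, the natural estrogen), an implant of 17-alpha-ethinyl estradiol (EE, a synthetic estrogen that carries an added ethynyl group) or an empty placebo implant placed at 6 to 7 weeks of age, and the spleen was collected 9 weeks later. NZB/WF1 mice, which spontaneously develop lupus, were used in all 3 groups, placebo included. Expression was read on a NanoString mouse immunology panel, a method that counts barcoded probes bound to each RNA with no amplification step, in 2 samples of each group. These were replicates 1 and 2 for E2, 11 and 14 for EE, and 22 and 26 for placebo. The sources used here give neither doses nor the number of mice behind a sample. Errors therefore measure the spread between samples, which may be technical in part.

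Type 2 immunity is the arm of the immune response that acts against worms and in allergy. T helper 2 cells and group 2 innate lymphoid cells make IL-4 and IL-13 under the transcription factors GATA3 and MAF, and both cytokines signal through the receptor chain IL-4R-alpha to STAT6. IL-33, IL-25 and TSLP are alarm cytokines that start or amplify this response; IL-33 is read by ST2, the product of Il1rl1, and IL-25 by the receptor chain that Il17rb encodes.

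Each sample held 646299 to 863942 counts over genes. The background, set at 2 SD above the mean of the negative controls, was 10.1 to 13.7 counts. The deposited values may already have been scaled on reference genes, whose geometric mean was nearly level at 1117.0 to 1184.8. The main fit scaled the counts by TMM, which sets the typical gene of the panel to no change. This moved the median log2 difference of all 457 genes tested up by 0.57 for E2 and 0.69 for EE against placebo, and by 0.12 for EE against E2. Changes below are relative to the panel, and values on the deposited scale are given where the call differs. Of the 12 named reference genes tested, 11 were called higher in E2 and 10 in EE on the TMM scale, with median log2 differences of 0.59 and 0.64, against 0.02 and -0.04 on the deposited scale. The increases of Il13, Cish and Kit in E2 and of Maf and Kit in EE, given below, lie near these medians. The threshold used here was an adjusted p under 0.05 over all genes tested. Past it, 134 of the 457 genes were above placebo and 104 below it in E2, and 136 were above and 123 below in EE. On the deposited scale these became 63 higher and 275 lower in E2, and 73 higher and 293 lower in EE. Markers of several cell types differed between the groups, and in bulk splenocytes fewer cells of a type and less RNA per cell cannot be told apart. All 15 tested T cell markers were lower in EE than in placebo and 13 were lower in E2, and of 8 B cell markers 6 were lower in EE and 4 in E2. All 8 erythroid, megakaryocyte and platelet genes were higher in E2 and in EE, as were 8 of 8 neutrophil markers in E2 and 7 of 8 in EE. In deposited values all 15 T cell markers and all 8 B cell markers were lower in both. On that scale 7 of 8 neutrophil markers were higher in E2, and 6 were higher and 1 lower in EE. The lower one was Cybb, at -0.38 against 0.30 on the TMM scale. Of the 8 erythroid, megakaryocyte and platelet genes 7 were higher in E2 and 8 in EE.

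Il1rl1 was the member with the largest increase under both estrogens. It had 160 and 187 counts in E2 samples, 219 and 230 in EE samples, and 47 and 42 in placebo samples. Both estrogen groups lay wholly above placebo, and every sample was above background. Relative to the panel Il1rl1 was higher by 2.53 ± 0.20 (SE) in E2 and by 3.02 ± 0.19 in EE on the log2 scale, folds of 5.78 and 8.09. The deposited counts alone gave 3.9-fold for E2 and 5.04-fold for EE. In CPM, counts scaled by TMM to a common total, Il1rl1 averaged 255 ± 50.5 in E2, 356 ± 2 in EE, and 43.9 ± 4.71 in placebo samples (SD, n = 2 each). Among the 457 genes, its difference was the 15th highest in E2 and the 13th highest in EE. Over 8 scalings the log2 difference ran from 1.86 to 2.53 in E2 and from 2 to 3.02 in EE, and it passed the threshold in each.

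Sequences at RefSeq starts within the 3 receptor genes and Gata3 are shown, since Il1rl1 was higher where the other 3 had lower counts. The windows run from 250 bases before to 50 after a RefSeq start in the GRCm38.p6 build. The set of windows used holds 2 starts of Il1rl1, in windows chr1:40429320-40429619 and chr1:40439379-40439678, plus strand. The RefSeq gene table places the outer ends of Il1rl1 (40404864) and of Gata3 (9887953) outside the windows used. Sequence at those ends was not searched. Il17rb lies at chr14:30008847-30009146 on the minus strand, Il4ra at chr7:125552021-125552320 on the plus strand, and Gata3 at chr2:9878551-9878850 on the minus strand. Capitals mark GATAA, the core letters of the motif that GATA factors bind, on either strand (TTATC on the other).
Il1rl1 first window: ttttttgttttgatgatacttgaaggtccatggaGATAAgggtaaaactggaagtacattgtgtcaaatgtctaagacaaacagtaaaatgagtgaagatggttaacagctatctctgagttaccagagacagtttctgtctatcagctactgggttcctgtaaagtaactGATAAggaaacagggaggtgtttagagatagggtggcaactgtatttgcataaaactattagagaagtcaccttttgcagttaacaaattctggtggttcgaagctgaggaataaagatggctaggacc
Il1rl1 second window: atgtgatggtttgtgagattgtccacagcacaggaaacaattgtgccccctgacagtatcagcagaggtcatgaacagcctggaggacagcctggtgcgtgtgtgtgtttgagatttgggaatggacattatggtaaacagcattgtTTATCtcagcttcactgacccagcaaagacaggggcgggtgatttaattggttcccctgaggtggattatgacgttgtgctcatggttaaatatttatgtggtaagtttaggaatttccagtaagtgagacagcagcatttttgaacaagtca
Il17rb: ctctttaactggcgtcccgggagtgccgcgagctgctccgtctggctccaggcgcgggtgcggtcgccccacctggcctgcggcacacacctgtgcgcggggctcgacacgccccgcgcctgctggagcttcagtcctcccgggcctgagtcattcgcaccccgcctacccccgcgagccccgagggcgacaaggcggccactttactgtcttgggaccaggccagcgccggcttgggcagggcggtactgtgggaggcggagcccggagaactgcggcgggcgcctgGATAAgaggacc
Il4ra: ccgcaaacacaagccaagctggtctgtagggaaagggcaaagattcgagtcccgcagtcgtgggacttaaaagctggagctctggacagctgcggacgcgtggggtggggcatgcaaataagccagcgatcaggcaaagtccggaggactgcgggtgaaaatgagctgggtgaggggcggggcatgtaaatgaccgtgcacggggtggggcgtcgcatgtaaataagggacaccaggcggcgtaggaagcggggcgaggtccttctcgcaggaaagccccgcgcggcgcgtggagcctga
Gata3: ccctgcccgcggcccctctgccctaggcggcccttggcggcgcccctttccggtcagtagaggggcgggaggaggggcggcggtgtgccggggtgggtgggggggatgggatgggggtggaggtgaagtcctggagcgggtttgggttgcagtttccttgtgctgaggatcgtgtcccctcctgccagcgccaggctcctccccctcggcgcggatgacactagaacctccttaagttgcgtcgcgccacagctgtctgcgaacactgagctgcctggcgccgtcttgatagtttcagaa
The first Il1rl1 window held GATAA 2 times on the gene's strand, from -216 to -212 and from -79 to -75 counted from the start, and the second held it 1 time on the other strand, from -103 to -99. The Il17rb window held 1 match, from 39 to 43 after the start, and the Il4ra and Gata3 windows held 0. Of the members with a window that is not shown, Il13 had 1 match, Il4 had 1 in 1 of its 2 windows and Stat6 had 0. Maf and Tslp were not searched, so whether a window of either gene holds a match is not known. Matches were thus found at genes with higher and with lower counts. Of 32851 such windows in the RefSeq table, 25.4% had at least 1 match. Only these 5 letters were searched, so a window with 0 matches may hold other forms of the motif. A match is a run of letters and does not show binding.

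Il17rb, which encodes the chain that binds IL-25, had lower counts under both estrogens. It had 21 and 25 counts in E2 samples, 16 and 12 in EE samples, and 45 and 84 in placebo samples. The groups did not overlap, but EE replicate 14 lay at the background and the placebo samples were far apart, so the fold is imprecise. The log2 difference was -1.51 ± 0.38 in EE, which passed the threshold, and -0.91 ± 0.35 in E2, which did not. Deposited counts were 2.8-fold lower in E2 and 4.61-fold lower in EE. The E2 difference was -1.48 on the deposited scale and passed, as it did under 7 of the 8 scalings and 15 of 21 alternatives, while the EE difference passed under all 8 scalings. The E2 difference was -0.43 without placebo replicate 26. It was past the threshold without placebo replicate 22 (-1.27), EE replicate 11 (-0.95) or EE replicate 14 (-0.91). In EE it was past the threshold whichever sample was left out, between -1.86 and -1.02.

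Il4ra, the chain shared by the receptors for IL-4 and IL-13, was lower in both. Counts were 875 and 762 in E2 samples, 759 and 781 in EE samples, and 1565 and 1940 in placebo samples. The 4 estrogen samples lay close together and below both placebo samples. Relative to the panel the log2 difference was -0.53 ± 0.10 in E2 and -0.50 ± 0.10 in EE, and both passed the threshold. On the deposited scale Il4ra was 2.14-fold lower in E2 and 2.28-fold lower in EE. Both calls held under all 22 alternatives run.

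**Figure D1:**
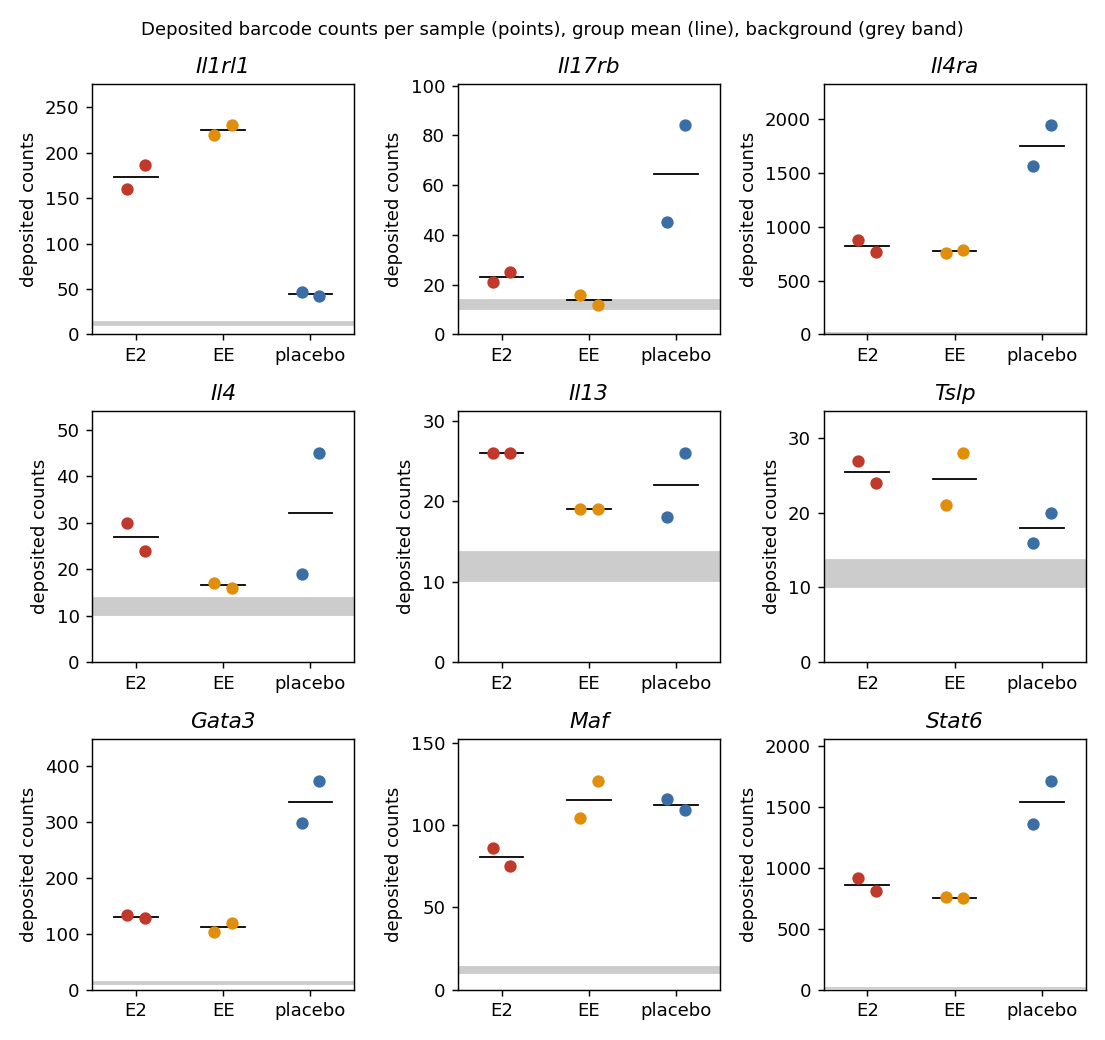
Deposited barcode counts of the 9 genes (y axis, linear, from 0) by group (x axis), with 1 point per sample, a line at the group mean and a grey band for the range of the background over samples. Il1rl1 is at 160 to 230 counts in the 4 estrogen samples and at 42 and 47 in placebo, Il4ra, Gata3 and Stat6 are lower in every estrogen sample, and Il4, Il13 and Tslp stay within 45 counts.

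The cytokine genes were counted near the background, at 16 to 45 counts in every sample, so no firm statement can rest on them at this depth. Il4, the signature T helper 2 cytokine, had 30 and 24 counts in E2 samples, 17 and 16 in EE samples, and 19 and 45 in placebo samples. The placebo samples spanned both E2 values, and the log2 difference was 0.32 ± 0.38 in E2 and -0.26 ± 0.42 in EE, neither past the threshold. Unscaled, the E2 difference was -0.24, not past it, and the EE difference was -0.95 and passed; 3 of the 8 scalings called Il4 lower in EE, and the E2 sign depends on the scaling. Without placebo replicate 26 the E2 difference became 1.04 and passed it. Il13, which drives mucus and macrophage responses, had 26 counts in each E2 sample, 19 in each EE sample, and 18 and 26 in placebo samples. Deposited counts overlapped between E2 and placebo. Relative to the panel, the log2 difference was 0.80 ± 0.30 in E2, past the threshold, and 0.47 ± 0.32 in EE, not past it and -0.21 on the deposited scale. The E2 call was kept when placebo replicate 26 was left out (1.06) and lost on leaving out any other sample, at 0.59 to 0.90, and on the deposited scale (0.24).

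Tslp, an alarm cytokine of epithelial and stromal cells, had 27 and 24 counts in E2 samples, 21 and 28 in EE samples, and 16 and 20 in placebo samples. The estrogen samples lay above both placebo samples by a few counts. The log2 difference passed the threshold in E2 (1.06 ± 0.31) and in EE (1.12 ± 0.31), but not on the deposited scale, where it was 0.50 and 0.44. Leaving out either E2 sample (1.07 and 1.06) ended the E2 call, as leaving out EE replicate 14 (0.93) did for EE.

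Gata3, the transcription factor that sets the T helper 2 fate and is also used by other T cells and innate lymphoid cells, was lower under both estrogens. Counts were 133 and 128 in E2 samples, 103 and 120 in EE samples, and 298 and 374 in placebo samples. No estrogen sample reached a placebo sample. The log2 difference was -0.79 ± 0.15 in E2 and -0.90 ± 0.15 in EE, and the deposited counts were 2.57-fold and 3.01-fold lower. It passed the threshold in both comparisons under all 22 alternatives. Among the 457 genes it was the 20th lowest in E2 and the 19th lowest in EE.

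Stat6, which carries the IL-4 and IL-13 signal to the nucleus, had 918 and 809 counts in E2 samples, 761 and 753 in EE samples, and 1364 and 1719 in placebo samples. All 4 estrogen samples were below placebo. Relative to the panel the difference was small, -0.27 ± 0.11 in E2, not past the threshold, and -0.34 ± 0.11 in EE, past it. The EE call was lost without EE replicate 11 (-0.40), EE replicate 14 (-0.30) or placebo replicate 26 (-0.19), and the E2 difference passed without placebo replicate 22 (-0.40). On the deposited scale both differences passed, at -0.84 in E2 and 2.04-fold lower in EE.

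Maf, which activates Il4 in T helper 2 cells and is also used by macrophages, had a different pattern. Counts were 86 and 75 in E2 samples, 104 and 127 in EE samples, and 116 and 109 in placebo samples. EE samples overlapped placebo and E2 samples lay below it, whereas after scaling E2 was level with placebo and EE was above it. The log2 difference was 0.72 ± 0.16 in EE, past the threshold, and 0.08 ± 0.17 in E2, not past it. On the deposited scale it turned to -0.48 in E2, past the threshold, and was 0.04 in EE. Leaving out EE replicate 14 also ended the EE call (0.60). The direction of Maf against placebo therefore depends on the scaling.

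In E2 against placebo 3 of the 9 genes were past the threshold higher and 2 lower, where 52.1% of all 457 genes were past it, 29.3% higher and 22.8% lower. In EE 3 were higher and 4 lower, where 56.7% of all genes were past it, 29.8% higher and 26.9% lower. The E2 number was 3 without E2 replicate 1 or without E2 replicate 2, and the EE number was 4 without EE replicate 14. On the deposited scale 1 of the 9 was higher and 5 lower in each comparison. On that scale 74% of all genes were past the threshold in E2 (13.8% higher, 60.2% lower) and 80.1% in EE (16% higher, 64.1% lower). The median log2 difference of the 9 was 0.08 in E2 and -0.26 in EE, against 0.01 and 0.00 over all genes tested. Deposited counts of 2 of the 9 lay wholly above placebo and of 5 wholly below it, in E2 and in EE alike. Of all genes 85.8% did not overlap in E2 (18.2% above, 67.6% below) and 88.8% in EE (18.8% above, 70% below). Both comparisons use the same placebo samples.

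**Figure D2:**
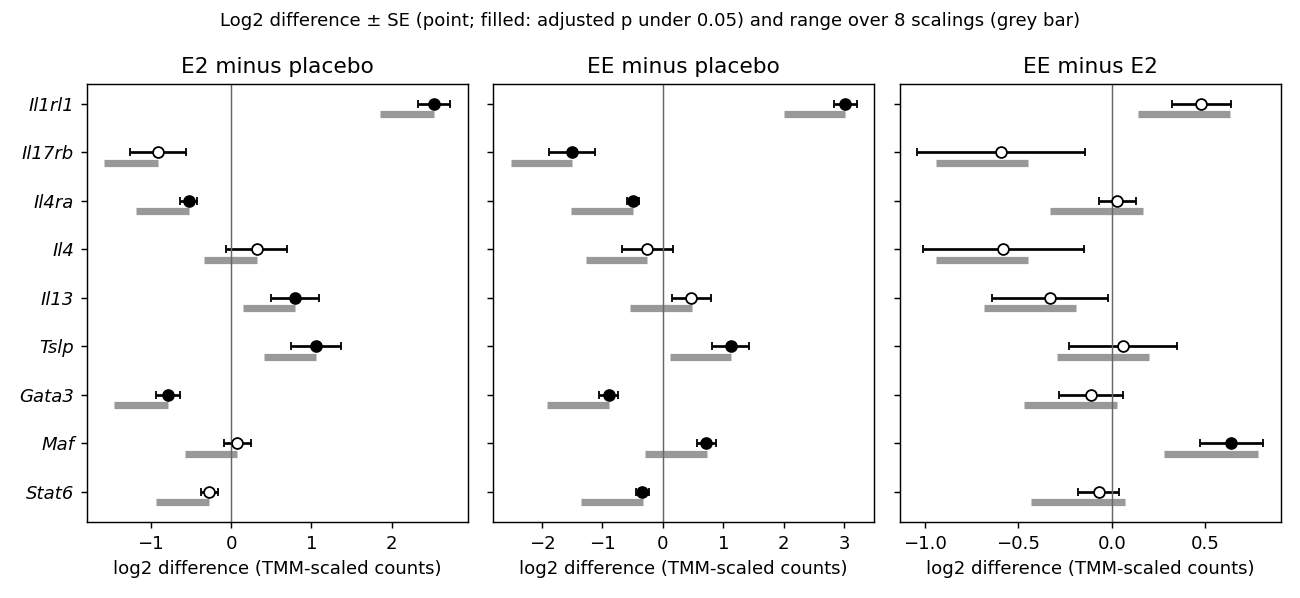
Log2 difference relative to the panel (x axis, TMM-scaled counts) for the 9 genes (y axis) in the 3 comparisons, as points with SE bars, filled where the adjusted p is under 0.05, with a grey bar for the range over 8 scalings. Il1rl1 lies right of 0 and Il17rb, Il4ra, Gata3 and Stat6 left of 0 against placebo under every scaling shown, while the bars of Il4, Il13 and Maf cross 0 in at least 1 of these comparisons.

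The direct comparison set EE against E2, 2 estrogens that differ by the ethynyl group, at doses that are not given, so matched doses are not established. Maf was the 1 member past the threshold, where 12.5% of all 457 genes were past it (7.44% higher and 5.03% lower). Its scaled CPM averaged 183 ± 20.5 in EE and 117 ± 0.922 in E2 (SD, n = 2 each), a log2 difference of 0.64 ± 0.17. The Maf call was lost without E2 replicate 1 (0.65), E2 replicate 2 (0.63), EE replicate 11 (0.75) or EE replicate 14 (0.52), and on the deposited scale (0.52). Il1rl1 had 219 and 230 counts in EE and 160 and 187 in E2, which did not overlap, and its log2 difference of 0.48 ± 0.16 did not pass. It passed without placebo replicate 22 or placebo replicate 26 (0.49 each). Deposited counts of 2 of the 9 lay wholly above and of 5 wholly below those of E2, where 58.6% of all genes did not overlap (17.9% above, 40.7% below). With edgeR on the deposited scale 0 of the 9 passed (1 at an unadjusted p under 0.05), where 17.7% of all genes did (5.91% higher, 11.8% lower). For the other 7 genes the log2 differences ran from -0.59 ± 0.45 for Il17rb to 0.06 ± 0.29 for Tslp, with SE of 0.10 for Il4ra and 0.11 for Stat6.

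The panel also holds other genes of these pathways, taken from lists that share no gene with the 9. The genes of IL-33, IL-25 and IL-5 lay near or below the background and were not tested. Il33 had 7 and 10 counts in E2, 9 and 18 in EE, and 8 and 14 in placebo, Il25 had 1 to 11 counts and Il5 1 to 6 over the 6 samples. Of the 9 further cytokine genes, 2 were tested. Il10, an anti-inflammatory cytokine, was higher in EE than in placebo (log2 difference 1.02 ± 0.37, edgeR adjusted p = 0.0398) with 28 and 29 counts against 30 and 15, so that its deposited counts overlapped. The Il10 difference was 0.34 on the deposited scale (adjusted p = 0.393), and the call held under 4 of the 8 scalings. It was also lost without EE replicate 11 (0.99), EE replicate 14 (1.02) or placebo replicate 26 (0.58). Il21, a cytokine of follicular helper T cells, had a difference of -0.79 ± 0.35 in E2 (adjusted p = 0.0836) and 0.18 ± 0.31 in EE (adjusted p = 0.63). Without placebo replicate 26 the Il21 difference in E2 was -1.13 and passed. Unscaled, it was -1.35 in E2 (adjusted p = 0.000176) and -0.50 in EE (adjusted p = 0.123), so that the sign in EE depends on the scaling.

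Among 8 partner receptor chains, 2 were higher and 4 lower in E2, and 4 were lower in EE, where 52.1% of all genes were called in E2 and 56.7% in EE. Without scaling 0 were higher, and 5 were lower in E2 and 7 in EE, where 60.2% and 64.1% of all genes were lower. Il17ra, the chain that pairs with the Il17rb product, fell in E2 (-0.46 ± 0.11, edgeR adjusted p = 0.00714) and in EE (-0.68 ± 0.11, adjusted p = 0.000681). Its counts were 1079 and 978 in E2, 830 and 790 in EE, and 1836 and 2357 in placebo. Il2rg, the common gamma chain that pairs with the Il4ra product for IL-4, fell in E2 (-0.36 ± 0.09, adjusted p = 0.00756) and EE (-0.32 ± 0.09, adjusted p = 0.0114), and lost its call without E2 replicate 2 (-0.35) in E2 and without EE replicate 14 (-0.28) in EE. Il7r, which pairs with the Crlf2 product to bind TSLP and with the gamma chain to bind IL-7, had 945 and 686 counts in E2, 648 and 685 in EE, and 2853 and 3368 in placebo. It fell in E2 (-1.37 ± 0.11, edgeR adjusted p = 1.13e-05) and in EE (-1.53 ± 0.11, adjusted p = 3.68e-06). Il1rap, the chain that ST2 needs to signal, did not follow Il1rl1 in its values. It had 132 and 125 counts in E2, 89 and 104 in EE, and 175 and 120 in placebo, with log2 differences of 0.36 ± 0.20 in E2 (adjusted p = 0.159) and 0.07 ± 0.21 in EE (adjusted p = 0.78). Without placebo replicate 22 the E2 difference of Il1rap was 0.69 and passed. On the deposited scale its EE difference was -0.61 and past the threshold (edgeR adjusted p = 0.00566).

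Of 15 receptor-proximal signalling genes, 1 was higher and 3 lower in E2, and 1 was higher and 5 lower in EE. Of all genes 29.3% were higher and 22.8% lower in E2, and 29.8% and 26.9% in EE. Deposited values gave 0 higher, with 13 lower in E2 and 14 in EE, where 60.2% of all genes were lower in E2 and 64.1% in EE. Jak3, the kinase of the gamma chain, fell in E2 (-0.67 ± 0.12, edgeR adjusted p = 0.00122) and in EE (-0.40 ± 0.12, adjusted p = 0.0151), and its EE call was lost without EE replicate 11 (-0.41), EE replicate 14 (-0.42) or placebo replicate 26 (-0.26). Jak1, the kinase of the IL-4 receptor chain, fell in E2 (-0.35 ± 0.08, adjusted p = 0.00534) and in EE (-0.34 ± 0.08, adjusted p = 0.00499). The Jak1 call was lost without E2 replicate 2 (-0.33) in E2 and without EE replicate 14 (-0.33) in EE. Irak4, a kinase downstream of ST2 and other receptors of the IL-1 family, fell in E2 (-0.46 ± 0.12, adjusted p = 0.00949) and in EE (-0.35 ± 0.12, adjusted p = 0.0281). Irak4 lost its call without E2 replicate 1 (-0.40) in E2, and without EE replicate 11 (-0.33), EE replicate 14 (-0.40) or placebo replicate 26 (-0.23) in EE. Cish, an inhibitor that cytokine receptors induce through STAT5, was the higher gene, at 0.79 ± 0.25 in E2 (adjusted p = 0.0248) and 1.03 ± 0.25 in EE (adjusted p = 0.00575), but on the deposited scale its differences were 0.22 and 0.34 and not past the threshold. The Cish call in EE was lost without EE replicate 11 (0.87), and in E2 without either E2 sample (0.77 and 0.80), EE replicate 11 (0.76) or placebo replicate 22 (0.74).

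Of 13 other lineage transcription factors, 6 were lower in E2 and 7 in EE, and the rest did not pass. Of all genes 22.8% were lower in E2 and 26.9% in EE. In each comparison 12 of the 13 were lower on the deposited scale. There 60.2% of all genes were lower in E2 and 64.1% in EE. Tbx21, the T helper 1 factor, changed by -1.08 ± 0.26 in E2 (edgeR adjusted p = 0.00675) and -0.97 ± 0.26 in EE (adjusted p = 0.0102), and lost its call without E2 replicate 1 (-0.87) in E2 and without EE replicate 14 (-0.86) in EE. Eomes, a factor of cytotoxic cells, changed by -1.13 ± 0.19 in E2 (adjusted p = 0.00115) and -1.19 ± 0.20 in EE (adjusted p = 0.000717). Bcl6, the follicular helper factor, fell in E2 (-0.68 ± 0.14, adjusted p = 0.00268), and Notch1, a receptor that also acts as a transcription factor, fell in EE (-0.70 ± 0.15, adjusted p = 0.00323). Ikzf1, the lymphoid factor Ikaros, fell in E2 (-0.34 ± 0.08, adjusted p = 0.00675), a call lost without E2 replicate 2 (-0.32), and in EE (-0.40 ± 0.08, adjusted p = 0.00216). Irf4 did not pass in either, at 0.09 ± 0.10 in E2 (adjusted p = 0.472) and -0.04 ± 0.10 in EE (adjusted p = 0.707). Deposited values of Irf4 were lower in both (-0.47 and -0.73), as were Bcl6 in EE (-0.97) and Notch1 in E2 (-0.84), which did not pass on the TMM scale.

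Of 13 genes of type 2 chemokines, their receptors and induced effectors, 7 were on the panel and 3 were tested. All 3 were higher in E2 and in EE than in placebo, where 29.3% and 29.8% of all genes were higher. The other 4, Ccl11, Ccr4, Ccr8 and Ptgdr2, had 1 to 22 counts per sample, near or below the background. Ccl24, which encodes eotaxin-2, a chemokine of macrophages that attracts eosinophils, had 382 and 321 counts in E2 samples, 455 and 532 in EE samples, and 104 and 116 in placebo samples. It rose by 2.24 ± 0.13 in E2 (edgeR adjusted p = 1.69e-06) and by 2.85 ± 0.13 in EE (adjusted p = 3.38e-07). Ccr3, the eotaxin receptor of eosinophils, had 557 and 539 counts in E2 samples, 641 and 801 in EE samples, and 355 and 326 in placebo samples, and rose by 1.25 ± 0.13 (adjusted p = 6.44e-05) and 1.77 ± 0.13 (adjusted p = 3.68e-06). Ccl22, a ligand of the T helper 2 chemokine receptor CCR4, rose by 1.35 ± 0.23 in E2 (adjusted p = 0.00115) and 1.15 ± 0.24 in EE (adjusted p = 0.00251). Ccl24 and Ccr3 passed in both comparisons under each of the 8 scalings, and Ccl22 passed in E2 under 8 of 8 and in EE under 5 of 8, not on the deposited scale (0.47, adjusted p = 0.119).

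In EE against E2, Ccl24 was higher by 0.61 ± 0.12 (edgeR adjusted p = 0.0119) and Ccr3 by 0.51 ± 0.12 (adjusted p = 0.0251). Csf2rb, the chain shared by the IL-3, IL-5 and GM-CSF receptors, was lower (-0.51 ± 0.13, adjusted p = 0.0316). The Ccr3 call held under 5 of the 8 scalings and was lost on the deposited scale (0.40, edgeR adjusted p = 0.052). No other gene of the 5 lists passed on the TMM scale. The next by p were Bcl6 (0.40 ± 0.14, adjusted p = 0.108), Notch1 (-0.42 ± 0.16, adjusted p = 0.113), Il21 (0.97 ± 0.37, adjusted p = 0.119), Il6ra, the IL-6 receptor chain (-0.28 ± 0.12, adjusted p = 0.159), and Jak3 (0.27 ± 0.12, adjusted p = 0.197). Log2 differences were 0.83 for Il10, -0.22 for Il17ra, -0.19 for Ccl22, -0.13 for Irf4 and for Irak2, and 0.18 for Irak1. Il17ra, Il21 and Notch1 passed without placebo replicate 22 or without placebo replicate 26, at the same differences, and Notch1 passed on the deposited scale (-0.54). Leaving out E2 replicate 2 (0.58) or EE replicate 14 (0.53) ended the call of Ccl24. Leaving out E2 replicate 1 (0.45), E2 replicate 2 (0.58) or EE replicate 14 (0.37) ended that of Ccr3. Leaving out E2 replicate 1 (-0.54), E2 replicate 2 (-0.49), EE replicate 11 (-0.55) or EE replicate 14 (-0.48) ended that of Csf2rb.

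**Figure D3:**
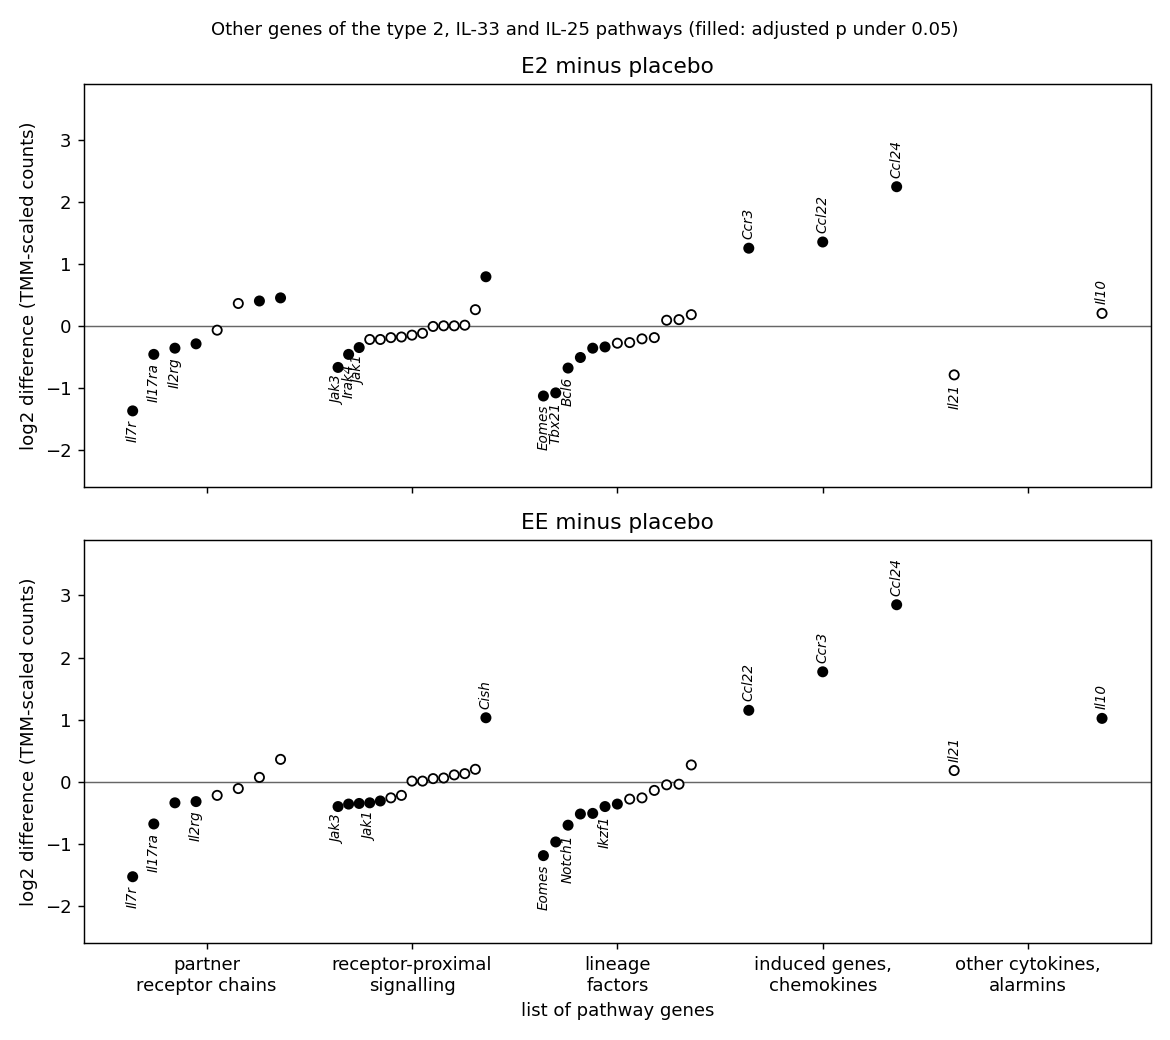
Log2 difference relative to the panel (y axis, TMM-scaled counts) of the tested genes of 5 pathway lists (x axis, sorted within each list), for E2 minus placebo above and EE minus placebo below; filled points have an adjusted p under 0.05 and the up to 3 genes of lowest p per list are named. Ccl24, Ccr3 and Ccl22 lie above 1 in both panels, while Il7r and Eomes lie below -1.

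The T cell markers moved with several of these genes. Summed over 15 T cell markers, scaled CPM was 18170 to 19260 in E2 samples, 15197 to 16413 in EE samples, and 26342 to 29662 in placebo samples, and none of the 15 was at a count of 0. Per 1000 T cell marker counts, Gata3 was at 9.47 and 11 in E2, 11 and 11.4 in EE, and 11.4 and 12.2 in placebo. On this measure Gata3 in E2 lay below both placebo samples. At these digits EE and placebo met at 11.4, and unrounded EE lay just below placebo. Il4ra was at 62.3 and 65.2 in E2, 80.9 and 74 in EE, and 59.7 and 63.2 in placebo, and Stat6 at 65.4 and 69.2 in E2, 81.1 and 71.3 in EE, and 52 and 56 in placebo. Neither was lower than placebo on that measure. Il1rl1 was at 11.4 and 16 in E2, 23.3 and 21.8 in EE, and 1.79 and 1.37 in placebo. The gap is wider than in the counts by arithmetic, since the divisor was itself lower under estrogen. Summed T cell marker counts were 11683 to 14043 in E2, 9384 to 10560 in EE, and 26213 to 30709 in placebo. On this measure 87.1% of all 457 genes did not overlap with placebo in E2 (81.8% above, 5.25% below) and 91% in EE (88% above, 3.06% below), so a higher value does not set a gene apart. The part of the T cells in these differences was not tested.

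**Figure D4:**
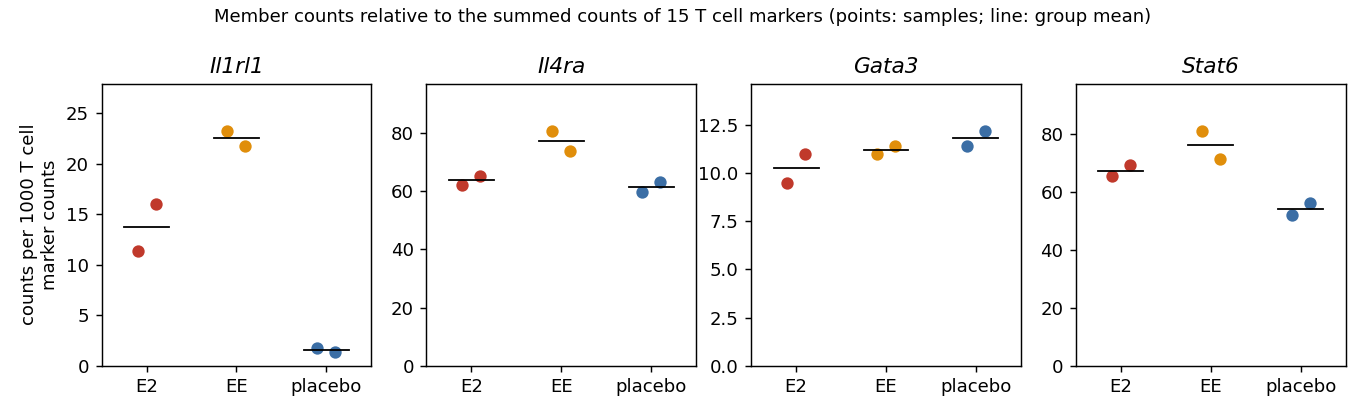
Counts of Il1rl1, Il4ra, Gata3 and Stat6 per 1000 summed counts of 15 T cell markers (y axis, linear, from 0) by group (x axis), with 1 point per sample and a line at the group mean. Gata3 lies within 9.47 to 12.2 in all 6 samples, with both E2 samples below placebo. Il1rl1 lies at 11.4 to 23.3 in estrogen samples and at 1.37 and 1.79 in placebo samples.

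Markers of other cells that can carry ST2 were also read. Of the mast cell, basophil and eosinophil list 2 genes were on the panel. Fcer1a, the high-affinity IgE receptor chain, had 8 and 8 counts in E2, 10 and 16 in EE, and 23 and 14 in placebo, at or near the background. Kit, the stem cell factor receptor of mast cells and blood progenitors, had 44 and 51 counts in E2, 46 and 48 in EE, and 38 and 42 in placebo. Its log2 difference was 0.82 ± 0.23 in E2 (edgeR adjusted p = 0.0161) and 0.92 ± 0.23 in EE (adjusted p = 0.00808), but 0.25 and 0.23, not past the threshold, on the deposited scale. Without E2 replicate 2 the E2 call of Kit was lost (0.61). Of 7 regulatory T cell markers 1 was lower in E2 and the others did not pass, with a median log2 difference of -0.18 in E2 and in EE. All 7 were lower in both on the deposited scale, with medians of -0.75 and -0.87, where 60.2% and 64.1% of all genes were lower. The summed erythroid, megakaryocyte and platelet genes were at 21976 to 25289 scaled CPM in E2, 31762 to 34530 in EE, and 2418 to 3255 in placebo. Monocyte and macrophage markers summed to 9772 to 11211 in E2, 17485 to 19085 in EE, and 5640 to 7173 in placebo. In deposited counts these sums were 7125 to 7208 in E2, 10797 to 12279 in EE, and 5839 to 7138 in placebo. On that scale E2 overlapped placebo. Of the 7 tested, 6 were higher in E2, but on the deposited scale 2 were higher and 1 lower. In EE 6 were higher on both scales. None of the genes of these lists that the panel holds was at a count of 0. The part of these cell types in the changes of Il1rl1, Maf and Ccl24 was not tested.

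Over the 6 samples, the genes most like each member in log2 scaled CPM were picked out of 441 named genes outside the group, as a description, since all samples share the group differences. For Il1rl1 these were Abcb10 (Pearson r = 0.999), Tal1 (0.998) and Prim1 (0.998). For Gata3 they were Cd22 (0.997), Il2rb (0.99) and Cd79a (0.988), and for Il4ra Syk (0.998), Jak1 (0.994) and Icosl (0.994). Stat6 was most like Bcl2 (0.997) and Nfkb1 (0.997), and Il17rb most like Map4k2 (0.995), Notch2 (0.987) and Cr2 (0.986). Maf was most like Cd86 (0.975), C6 (0.962) and Icam1 (0.954). Among the members themselves Il4ra, Gata3 and Stat6 ran together, with r of 0.97 for Il4ra with Gata3, 0.94 for Il4ra with Stat6 and 0.91 for Gata3 with Stat6. Il1rl1 ran against them, at -0.95, -0.97 and -0.88 with Il4ra, Gata3 and Stat6. Il17rb also ran with Il4ra (0.86), Gata3 (0.89) and Stat6 (0.95) and against Il1rl1 (-0.86). Tslp, counted near the background, ran with Il1rl1 (0.95) and against Il4ra and Gata3 (-0.89 each).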

How the data were processed

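Barcode counts per probe were deposited for 6 samples, as whole numbers that differ in total; per the labels they come from a NanoString mouse immunology codeset, and any background subtraction or normalisation is not given in the sources used here. Of 575 rows 561 were genes and 14 were spike-in controls (6 positive, 8 negative), which stayed out of totals and tests. RefSeq accessions without version named 549 gene rows (GRCm38.p6 gene table). Every value column belongs to a sample (0 without one).

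Genes averaging 20 counts or more were tested (457, leaving out 104) with the edgeR 4.0.16 quasi-likelihood test in R 4.3.3, TMM scaling and group means over all 6 samples (3 residual degrees of freedom, common biological coefficient of variation 0.0892). P-values are two-sided and Benjamini-Hochberg adjusted over all genes tested, at 0.05. SE is the log2 difference over the square root of its F statistic. Members, lists, designs and alternatives were chosen with earlier results of these data known. All 9 members are named; of each pathway list the up to 3 genes with the lowest p per comparison are named, plus Il33, Il25, Il5, Il1rap, Il2rg, Jak1, Jak3, Irf4 and Tbx21. Kit and Fcer1a are given as markers. Alternatives were 7 other scalings, DESeq2 1.42.0, limma 3.58.1 on log2 values, other filters and thresholds, background subtraction, and each sample left out. Counts per T cell marker count were added after seeing the data. Promoter windows were searched for 1 motif. Replicates varied beyond counting error (chi-square per degree of freedom 12.7 for E2, 3.32 for EE, 16.4 for placebo). Scripts were tested on simulated data. One gene most like Stat6 is not reported here.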

Additional observations from a re-analysis of the deposited data

How the results depend on the processing

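Across the alternatives Il1rl1 stayed higher, and Il4ra and Gata3 stayed lower, than placebo under both estrogens and past the threshold in each of 22 alternatives, as Il17rb did in EE in the 21 that tested it. The number of the 9 genes past the threshold in E2 against placebo fell to 3 with DESeq2 and to 3 with a mean of at least 50 counts, which leaves the 3 cytokines and Il17rb untested. Leaving out a sample gave 3 to 6 in E2 against placebo, 4 to 7 in EE against placebo and 0 to 2 in EE against E2. In EE against E2 the number was 0 with DESeq2 (2 at an unadjusted p under 0.05), 0 with limma on scaled CPM (2) and on deposited values with 1 (4) or 10 (3) added, and 0 with edgeR on the deposited scale (1), on reference genes (1) and on positive controls (4). It was 2 on column totals, 2 at an adjusted p under 0.1 and 2 with only the groups compared.

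Directions turned, with the value past the threshold on at least 1 of the 2 sides, for Maf in E2 against placebo on the deposited scale (-0.48), on reference genes (-0.54), on positive controls (-0.57) and with limma on deposited values plus 1 (-0.48) or plus 10 (-0.44), and for Maf in EE on reference genes (-0.03) and positive controls (-0.29). In E2 they turned for Csf2rb on the deposited scale (-0.17), reference genes (-0.23), positive controls (-0.26), column totals (-0.07) and limma on deposited values (-0.16 with either addition), and for Irf4 (-0.47, -0.53, -0.56, -0.38 and -0.48 in the same order). In EE they turned for Il1rap on the deposited scale (-0.61), reference genes (-0.67), positive controls (-0.94) and limma (-0.59 and -0.55), and for Irak1 on the deposited scale (-0.63), reference genes (-0.69), positive controls (-0.96), column totals (-0.27) and limma (-0.62 and -0.61). In EE they turned on positive controls for Il21 (-0.83) and Kit (-0.10). With neither side past the threshold, signs also turned on the deposited scale for Il4 (-0.24), Il10 (-0.36) and Il1rap (-0.20) in E2 and for Il13 (-0.21) and Il21 (-0.50) in EE, among others, and on column totals for Maf E2 minus placebo (-0.39). The cause was not tested, beyond the shift of all genes that each scaling makes. Over all genes in EE against E2, calls numbered 57, against 127 on positive controls, 99 on column totals, 10 with limma on scaled CPM, 31 with limma on deposited values plus 1, 110 with only the groups compared and 21 to 111 with a sample left out. The split of these calls was 34 higher and 23 lower, against 27 and 54 on the deposited scale, 23 and 50 on reference genes, 10 and 117 on positive controls, and 81 and 18 on column totals. In E2 against placebo leaving out a sample gave 155 to 272 calls, against 238, the fewest without E2 replicate 2. No paired analysis was possible because the groups share no replicate numbers. Counts near the background limit Il4, Il13, Tslp and Il17rb.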
